A study of Mus musculus with 23 samples.

Results

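The tubulin genes followed here encode the alpha tubulins Tuba1a, Tuba1b and Tuba4a and the beta tubulins Tubb2a, Tubb2b, Tubb4a, Tubb4b, Tubb5 and Tubb6, and Tppp encodes a protein that promotes tubulin polymerization. These 10 genes were chosen by name, of 35385 gene symbols in the tables, and all 10 passed the filter on low values in every comparison, Tuba4a in the sorted cells only through the OL libraries. The study measured polyadenylated RNA in 23 libraries of mouse oligodendrocyte lineage cells made from epiblast stem cells. Sorted oligodendrocyte progenitor cells (OPCs) and sorted oligodendrocytes (OLs) that carried the surface antigen O1 had 3 libraries each. The other 17 libraries came from OPCs that had received a lentiviral CRISPRv2 vector with a non-targeting guide (control), SOX6 guide 1 or SOX6 guide 2, all made from 1 original batch of OPCs and selected with puromycin (500 ng/mL, 96 hours). They were kept for 60 hours either in OPC growth medium (3 control, 2 guide 1 and 3 guide 2 libraries) or in a differentiation permissive medium without the thyroid hormone T3 (3 libraries for each guide). SOX6 is a transcription factor of the SOXD group. The labels call the cells of the second medium OLs, and that name is kept here although those cultures were not sorted. All OPC stocks had been purified by sorting for CD140a and NG2; the lines named are EpiSC5, of strain 129SvEv, and 129O1, of strain 129S1/SvImJ, and targeted cells were pools, with no clone named.

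Microtubules are polymers of alpha and beta tubulin dimers, and each tubulin is made as several isotypes from separate genes. Oligodendrocytes lay microtubules along many processes to carry membrane and messenger RNA to the forming myelin sheath. Tubb4a is the beta isotype known for its high level in oligodendrocytes, and in humans mutations of TUBB4A cause a hypomyelinating disease. Tppp is a brain protein found mainly in oligodendrocytes, where it nucleates microtubules away from the cell centre.

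Promoter windows from RefSeq (build GRCm38.p6, 250 bases before to 50 bases after the annotated start) were matched by symbol for 8 of the 10 genes, Tubb2b and Tubb6 being the others. The windows of Tubb4b, Tubb5, Tubb4a and Tubb2a, the beta tubulin genes with a matched window, are printed below, 5′ to 3′ on the strand of the gene. Capitals mark matches to ACAAT, the core recognised by SOX proteins, to CCAAT, the box bound by the factor NF-Y, and to TATAAA, on either strand; no base was matched by more than 1 of them. The Tubb4b window lies on the minus strand at chr2:25224653-25224952, that of Tubb5 on the minus strand at chr17:35838252-35838551, that of Tubb4a on the minus strand at chr17:57087551-57087850 and that of Tubb2a on the minus strand at chr13:34077959-34078258.
Tubb4b: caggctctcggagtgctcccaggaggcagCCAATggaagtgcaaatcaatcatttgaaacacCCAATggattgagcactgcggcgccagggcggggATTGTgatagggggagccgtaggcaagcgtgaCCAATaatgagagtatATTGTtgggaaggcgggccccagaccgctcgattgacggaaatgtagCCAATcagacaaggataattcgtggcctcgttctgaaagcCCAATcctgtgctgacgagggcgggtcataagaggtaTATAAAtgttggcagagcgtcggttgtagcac
Tubb5: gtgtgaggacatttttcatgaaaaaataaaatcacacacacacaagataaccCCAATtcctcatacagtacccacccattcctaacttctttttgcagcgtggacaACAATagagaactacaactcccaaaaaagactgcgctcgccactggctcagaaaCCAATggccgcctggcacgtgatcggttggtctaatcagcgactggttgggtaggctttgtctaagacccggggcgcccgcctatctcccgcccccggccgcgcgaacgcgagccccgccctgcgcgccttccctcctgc
Tubb4a: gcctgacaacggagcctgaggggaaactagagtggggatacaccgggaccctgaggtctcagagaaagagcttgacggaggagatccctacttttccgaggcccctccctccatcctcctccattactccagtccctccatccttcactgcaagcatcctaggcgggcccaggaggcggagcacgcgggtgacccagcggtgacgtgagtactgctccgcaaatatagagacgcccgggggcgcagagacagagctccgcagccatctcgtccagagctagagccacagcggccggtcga
Tubb2a: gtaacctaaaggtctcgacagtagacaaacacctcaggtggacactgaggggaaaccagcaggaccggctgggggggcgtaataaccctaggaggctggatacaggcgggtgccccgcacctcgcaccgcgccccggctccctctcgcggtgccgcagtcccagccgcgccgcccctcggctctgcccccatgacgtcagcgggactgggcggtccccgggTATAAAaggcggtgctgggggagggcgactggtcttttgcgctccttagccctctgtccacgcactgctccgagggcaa
The Tubb4b window held 5 CCAAT and 2 ACAAT matches, and 1 TATAAA match 18 bases after the start. The Tubb5 window held 2 CCAAT matches and 1 ACAAT match. Of the 32851 windows of this length in the table, 37.4% held CCAAT, 31% held ACAAT and 13.6% held TATAAA. The Tubb4a window held none of these letters, and the Tubb2a window held TATAAA 29 bases before the start. Of the windows not printed, Tuba1a held 1 CCAAT match, and Tuba1b, Tuba4a and Tppp held no match to any of the motifs. A match describes the letters only and is not evidence of binding.

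The libraries of the SOX6 experiment held between 13124580 and 18551822 estimated counts, and the depth of the sorted libraries is unknown. The deposited TPM of the SOX6 libraries summed to between 776154 and 792227 and were used as given. Sox6 itself lay at 165 to 234 CPM (counts scaled to library size) in control OPCs and at 67.4 to 88.9 CPM in targeted OPCs. In OLs it lay at 387 to 437 CPM in the controls and at 157 to 259 CPM with either guide. By the edgeR quasi-likelihood test the log2 difference in OLs was -0.81 with both guides (adjusted p = 0.0095). It was -0.91 with guide 1 (adjusted p = 0.0161) and -0.71 with guide 2 (adjusted p = 0.04996, just under the threshold of 0.05). The authors' deposited log2 value of control over targeted was 0.83 in OLs (adjusted p = 0.0593) and 1.48 in OPCs (adjusted p = 3.01e-05). Library B of OL guide 1 stood apart: it differed from the other guide 1 libraries by a chi-square of 100.0 to 103 per gene, against 5.69 to 24.2 for all other pairs of libraries within a group. The calls of the 10 genes in OLs are therefore given with and without it. Nothing in the labels says that libraries of 1 group were grown as separate cultures; p-values then reflect only the spread between these libraries, which may be technical. In these bulk libraries fewer cells of a type and less RNA per cell cannot be told apart.

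Close copies can share reads. Of the 31-base words in the transcripts of Tuba1a, 77% also occurred in other genes, and the share was 75.4% for Tuba1b, 64.6% for Tubb4b, 56.4% for Tubb2a and 45.9% for Tubb2b. It was at most 3.94% for Tuba4a, Tubb4a, Tubb5 and Tubb6, and 0 for Tppp. Values of the first 5 genes are thus uncertain in how reads were divided between copies.

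Sorted OLs differed from sorted OPCs in the 9 genes other than Tuba4a (limma on log2(TPM + 1), where TPM is the deposited transcript abundance per length; adjusted p under 0.05, as for 61% of all genes tested, 26.6% higher and 34.5% lower). Tubb4a, Tppp, Tuba1a, Tubb4b and Tubb2b were higher in OLs, and Tubb6, Tuba1b, Tubb5 and Tubb2a were lower. The groups did not overlap for any of these 9, as for 67.5% of all genes. Tuba4a reached the filter of 1 TPM in 0 OPC libraries and in all 3 OL libraries, so its values are a description.

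The oligodendrocyte isotype Tubb4a stood at 5.05, 3.71 and 4.75 TPM in the sorted OPC libraries and at 1482, 1493 and 1326 TPM in the sorted OL libraries. It was the scarcest of the 6 beta tubulin messages in OPCs and the most abundant in OLs. The difference was 8.03 (SE 0.11) on the log2(TPM + 1) scale, with an adjusted p of 4.8e-08. Tppp lay at 3.74, 5.20 and 5.63 TPM in sorted OPCs and at 199.9, 198 and 209 TPM in sorted OLs. Every OL library exceeded every OPC library by far, with a log2(TPM + 1) difference of 5.13 (SE 0.13, adjusted p = 3.18e-07).

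Among the alpha tubulins, Tuba1a, the main isotype of developing neural cells, had 2255, 2213 and 2607 TPM in sorted OPCs and 8662, 8880 and 9038 TPM in sorted OLs (log2 difference 1.91, SE 0.076, adjusted p = 1.7e-06). With Tuba1a, Tuba1b and Tuba1c summed the difference was 1.31 (SE 0.054, adjusted p = 1.92e-06). Tuba1b, a widely expressed isotype, went the other way. It had 1230, 1210 and 994 TPM in sorted OPCs and 269, 254 and 303 TPM in sorted OLs (log2 difference -2.05, SE 0.1, adjusted p = 4.9e-06). Tuba4a, whose protein ends without the usual terminal tyrosine, stayed scarce, at most 0.398 TPM in sorted OPCs and between 4.28 and 9.98 TPM in sorted OLs.

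Of the broadly expressed beta tubulins, Tubb5 fell from a mean of 823 ± 60.7 TPM (SD, n = 3) to 302 ± 21.3 TPM (SD, n = 3), a log2 difference of -1.44 (SE 0.079, adjusted p = 6.95e-06). Tubb6 fell from 86.3, 89.0 and 60.4 TPM to 4.21, 6.60 and 8.45 TPM. That was a log2 difference of -3.45 (SE 0.25, adjusted p = 2.38e-05). Tubb4b rose from 289, 294 and 260 TPM to 607, 594 and 630 TPM (log2 difference 1.12, SE 0.064, adjusted p = 8.21e-06). The neural isotypes Tubb2a and Tubb2b parted, Tubb2a being lower in OLs by a log2 difference of -0.88 (SE 0.068) and Tubb2b higher by 0.39 (SE 0.064). With Tubb2a and Tubb2b summed, the difference was 0.10 (SE 0.056, adjusted p = 0.173). Because Tubb2b rose, this sum cannot tell a fall of Tubb2a from the way reads were divided between the copies. The median log2 difference of all genes was -0.14, and after centring the libraries on their median Tubb2b was higher by 0.48.

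**Figure D1:**
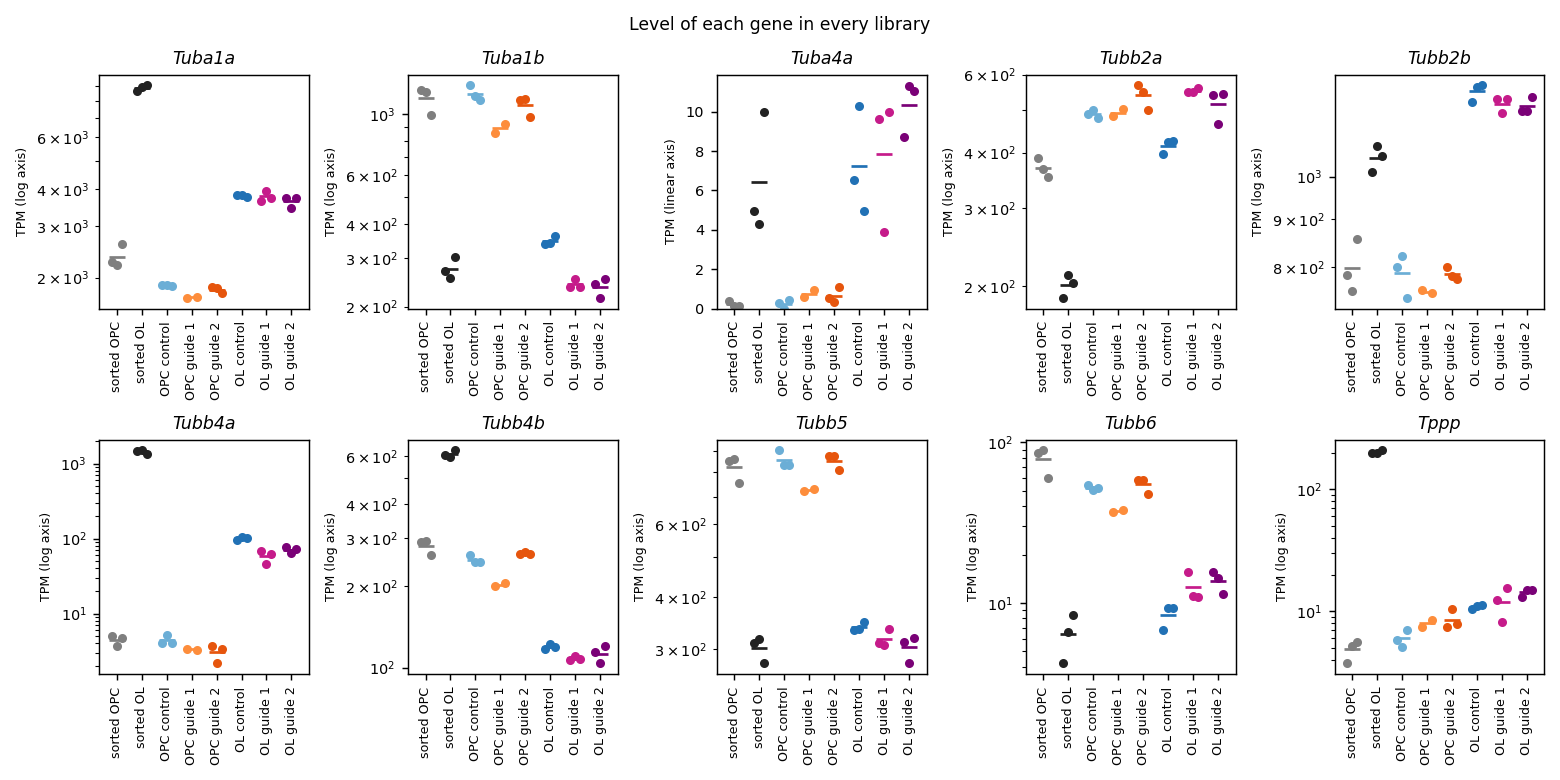
TPM of each gene in every library (points) with the group mean (line), for the sorted cells and the SOX6 experiment; axes are logarithmic except that of Tuba4a, and the sorted cells and each stage come from separately normalized tables. Tubb4a reaches 1326 to 1493 TPM in sorted OLs and 96.5 to 105 TPM in control OL cultures.

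Control cultures in differentiation medium differed from control OPCs in all 10 genes as well (edgeR quasi-likelihood test, adjusted p under 0.05, as for 43% of all genes, 21.4% higher and 21.6% lower; 58.8% of all genes did not overlap, and neither did any of the 10). Tubb4a, Tuba4a, Tuba1a, Tppp and Tubb2b were higher, and Tubb6, Tuba1b, Tubb5, Tubb4b and Tubb2a were lower. OPC and OL counts were deposited as separate tables, so the stage and the table cannot be told apart.

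Tubb4a had 8.39, 9.87 and 7.43 CPM in control OPCs and 169, 184 and 174 CPM in control OLs. Every OL library lay far above every OPC library, and the log2 difference was 4.36 (SE 0.15, adjusted p = 1.5e-11). Tppp had 24.8, 24.1 and 30.9 CPM in control OPCs and 41.6, 40.3 and 42.4 CPM in control OLs, a log2 difference of 0.64 (SE 0.11, adjusted p = 0.000283). Tuba4a had 0.706, 0 and 1.02 CPM in control OPCs and 11.8, 10.2 and 9.01 CPM in control OLs. Tuba1a went from 3030, 2842 and 2662 CPM to 5234, 5252 and 5115 CPM (log2 difference 0.87, SE 0.11, adjusted p = 9.59e-06). With Tuba1a, Tuba1b and Tuba1c summed, the difference was 0.25 (SE 0.11, adjusted p = 0.0928). Because Tuba1b fell (-1.99), this sum cannot tell a rise of Tuba1a from the way reads were divided between the copies.

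The widely expressed isotypes Tuba1b, Tubb5 and Tubb6 were lower in the cultures too. Tuba1b went from 1929, 1540 and 1424 CPM to 411, 419 and 402 CPM (log2 difference -1.99, SE 0.15, adjusted p = 5.89e-08). Tubb5 changed by -1.49 (SE 0.095) and Tubb6 by -2.78 (SE 0.17). All 14 of the listed cell division genes fell between these groups, and their summed level went from a mean of 4434 CPM to 715 CPM. Astrocyte markers, 6 of 9 called higher, went from a sum of 1200 CPM in OPCs to 6362 CPM in OLs under the control guide, and were at 526 and 3045 TPM in sorted OPCs and OLs. The part of either list in these results was not tested.

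Tubb4b moved in opposite directions in the sets. It went from 360, 320 and 301 CPM in control OPCs to 138, 145 and 139 CPM in control OLs, a log2 difference of -1.22 (SE 0.1, adjusted p = 2.65e-07), while it was higher in sorted OLs. The sets were normalized and fitted separately, and the contrast between them was not tested. They differ in sorting, and the labels give the medium and time only for the cultures. Tubb2a had a log2 difference of -0.38 (SE 0.099, adjusted p = 0.00574) between control stages. With Tubb2b summed in, the difference was 0.29 (SE 0.091, adjusted p = 0.0197). Because Tubb2b rose (0.50), this sum cannot tell a fall of Tubb2a from the way reads were divided between the copies.

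Targeted OLs differed from targeted OPCs in 9 of the 10 genes, where 52.4% of all genes were called. Tubb4a had a log2 difference of 4.33 (SE 0.12), close in size to that of the controls. Tubb6 differed by -1.77 (SE 0.12) and Tuba1b by -2.11 (SE 0.11). Tubb2a was the exception, with 0.07 (SE 0.074, adjusted p = 0.471).

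**Figure D2:**
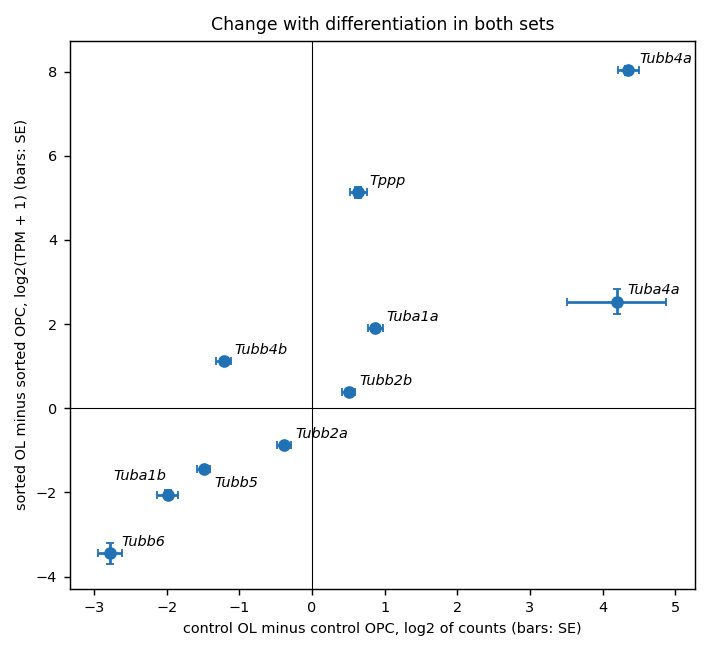
Log2 difference between OLs and OPCs in control cultures (horizontal axis, from counts) and in sorted cells (vertical axis, from TPM + 1), 1 point per gene with SE bars on both axes. Tubb4b alone lies in the quadrant of a lower value in cultures (-1.22) and a higher one in sorted cells (1.12).

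The make-up of the tubulin pool followed from these levels. The members held between 93.9% and 99.7% of all alpha tubulin TPM and between 97.7% and 99.6% of all beta tubulin TPM of a library. Summed alpha and beta TPM was 5858 ± 57.4 (SD, n = 3) in sorted OPCs and 12742 ± 175 (SD, n = 3) in sorted OLs. In cultures it was 5508 ± 160 (SD, n = 3) in control OPCs and 6367 ± 53.6 (SD, n = 3) in control OLs.

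Tuba1a supplied 67.2% ± 4.46 of the alpha pool in sorted OPCs and 96.9% ± 0.262 in sorted OLs (SD, n = 3 each). In control cultures its share was 61.3% ± 1.46 in OPCs and 91.5% ± 0.313 in OLs (SD, n = 3 each). In the beta pool Tubb4a supplied 0.191% ± 0.03 of sorted OPCs and 39.8% ± 1.67 of sorted OLs, but only 4.54% ± 0.113 of control OL cultures, where Tubb2b supplied 55.7% ± 0.158 (SD, n = 3 each). Tubb5 fell from 34.9% to 8.37% of the beta pool in sorted cells. For the sorted cells the exact permutation test on shares cannot go below p = 0.1, two-sided, and every share reached that value, with 0.135 after adjustment over the 27 shares tested.

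**Figure D3:**
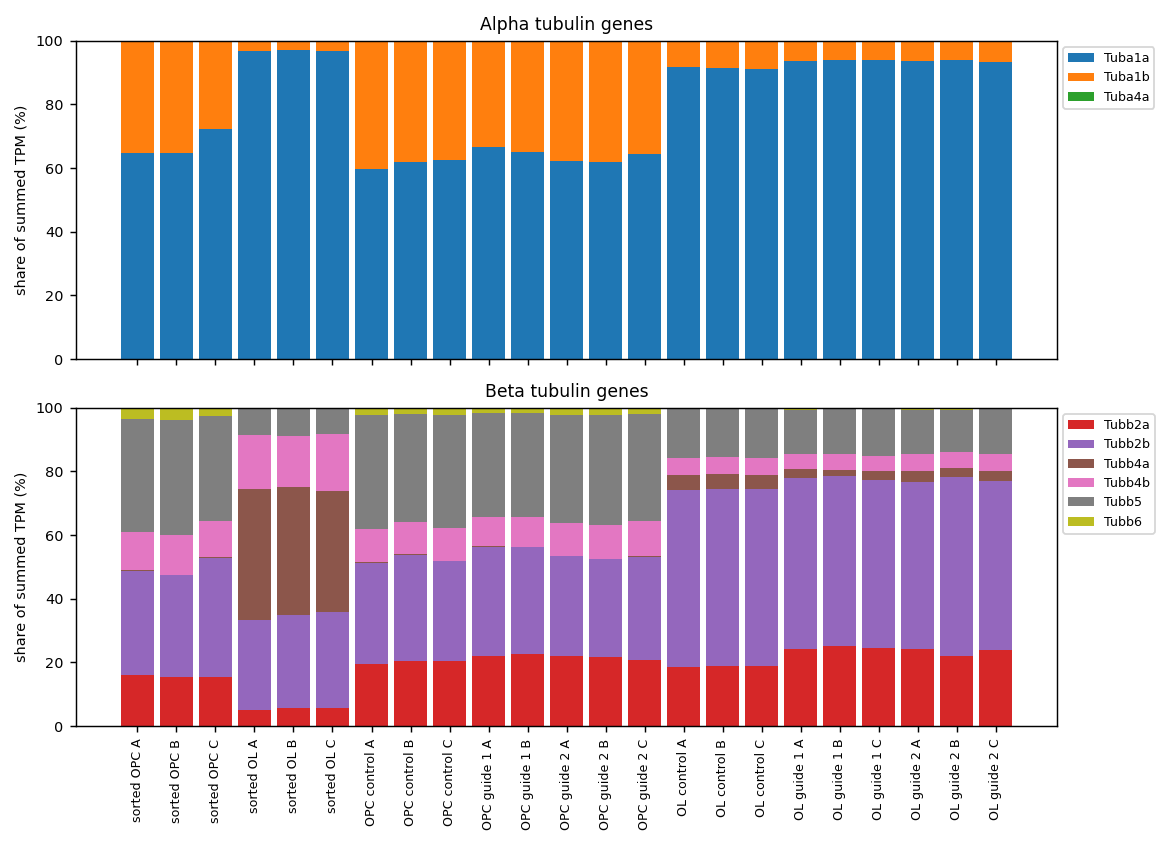
Share of summed TPM of the 3 alpha (top) and 6 beta (bottom) tubulin genes in each library, as stacked bars that add to 100%; letters name the libraries of a group. Tubb4a takes 39.8% of the beta pool in sorted OLs and 4.54% in control OL cultures.

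In OPCs, SOX6 targeting gave no call in the 10 genes with both guides together (edgeR quasi-likelihood test, adjusted p under 0.05), where 3.59% of all genes were called. At an unadjusted p under 0.05 there were 7 of 10, against 17.2% of all genes. DESeq2 called Tuba1b (log2 difference -0.29, adjusted p = 0.0208) and Tuba1a (-0.13, adjusted p = 0.0493), for which edgeR gave adjusted p = 0.142 and 0.157. The authors' deposited values of control over targeted were 0.28 for Tuba1b (adjusted p = 0.182) and 0.12 for Tuba1a (adjusted p = 0.379). By edgeR, Tuba1b differed by -0.45 with guide 1 and -0.13 with guide 2, and Tuba1a by -0.19 and -0.06, none of them called. Tubb4a was the 1 gene whose groups did not overlap (11.7% of all genes did not): controls had 8.39, 9.87 and 7.43 CPM, guide 1 had 6.19 and 5.89 CPM, and guide 2 had 7.02, 4.14 and 6.32 CPM. Its log2 difference was -0.51 (SE 0.2, adjusted p = 0.231). Tppp was at 33.2 and 35.7 CPM with guide 1 and at 30.5, 35.9 and 34.3 CPM with guide 2, a log2 difference of 0.37 (SE 0.1, adjusted p = 0.102); without control library C it was 0.50 (adjusted p = 0.0236). Leaving out that library also gave calls for Tuba1a (-0.17, adjusted p = 0.0465) and Tubb2b (-0.15, adjusted p = 0.0426).

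Guide 1 alone was called lower for Tubb4b (log2 difference -0.37, SE 0.067, adjusted p = 0.0262) and Tubb6 (-0.55, SE 0.1, adjusted p = 0.0325) in OPCs, where 2.78% of all genes were called. With guide 2 none of the 10 was called, where 2.04% of all genes were, and these genes differed from the controls by 0.06 (SE 0.059) and 0.05 (SE 0.09), and the direct comparison of guide 2 with guide 1 gave adjusted p = 0.116 for Tubb4b and 0.156 for Tubb6. Each call was lost in 8 of 14 alternatives: with a length offset, with both stages fitted together and, in adjusted p from 0.0519 to 0.229, with 1 library left out. Those libraries were guide 1 A and B, control B, guide 2 A and B, and also guide 2 C for Tubb4b and control A for Tubb6. The summed level of the cell division genes was 3269 CPM with guide 1, 4181 CPM with guide 2 and 4434 CPM in the controls; its part in these values was not tested.

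In OLs with both guides together, Tubb4a was called lower and Tubb2a and Tubb6 were called higher (edgeR quasi-likelihood test). That was 3 of 10, against 6.5% of all genes, 3.13% higher and 3.37% lower. Of these genes, only Tubb4a was called with each guide alone. The same 3 genes were those whose groups did not overlap, as for 17.5% of all genes. Without OL guide 1 library B, 16.9% of all genes were called in place of 6.5%.

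Tubb4a had 169, 184 and 174 CPM in control OLs, 119, 107 and 112 CPM with guide 1 and 133, 119 and 129 CPM with guide 2. Every targeted library lay below every control library. The log2 difference was -0.56 (SE 0.068, adjusted p = 0.00172) with both guides, -0.64 (SE 0.08, adjusted p = 0.00275) with guide 1, where 4.92% of all genes were called, and -0.47 (SE 0.08, adjusted p = 0.0121) with guide 2. Without library B the value for both guides was -0.55 (adjusted p = 0.0001), and the call for both guides held in all 15 alternatives run. Guide 2 alone no longer passed when any control library, or guide 2 library B or C, was left out (adjusted p between 0.054 and 0.0776). For Tubb4a the authors' deposited table gives a log2 value of control over targeted of 0.55 (adjusted p = 1.56e-06). By level in TPM, Tubb4a stood highest in sorted OLs (1434), then in OL controls (101), OL guide 2 (70.8) and OL guide 1 (58.7), with the guides' ranges overlapping. All OPC groups were at 5.13 TPM or less.

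Tubb2a had 476, 509 and 505 CPM in control OLs, 661, 882 and 681 CPM with guide 1 and 648, 598 and 658 CPM with guide 2. The value of 882 CPM is that of library B. The log2 difference was 0.46 (SE 0.096, adjusted p = 0.0238), and without library B it was 0.38 (adjusted p = 0.000241). The call was lost without any 1 of the control libraries A, B and C or of the guide 2 libraries A, B and C (adjusted p between 0.0504 and 0.125). Guide 1 alone gave 0.58 (SE 0.11, adjusted p = 0.0195), where 4.92% of all genes were called. Guide 2 alone gave 0.35 (SE 0.11, adjusted p = 0.141) and was not called. With Tubb2a and Tubb2b summed the difference for both guides was 0.14 (SE 0.085, adjusted p = 0.450). In the authors' deposited table the log2 value of control over targeted for Tubb2a was -0.47 (adjusted p = 0.00912).

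Tubb6 had 9.05, 12.4 and 12.2 CPM in control OLs, 20.9, 19.7 and 14.7 CPM with guide 1 and 20.8, 20.5 and 15.4 CPM with guide 2. All targeted libraries were above all controls, at low levels. The log2 difference was 0.73 (SE 0.18, adjusted p = 0.0453). It passed narrowly, and the call was lost in 10 of 15 alternatives (adjusted p between 0.052 and 0.202). These were library totals as scaling, no filter, a length offset, and leaving out any control library, guide 1 library A or any guide 2 library. Without library B the difference was 0.70 (adjusted p = 0.0265). Neither guide alone was called: guide 1 gave 0.72 (adjusted p = 0.0905) and guide 2 gave 0.75 (adjusted p = 0.0826). The authors' deposited log2 value of control over targeted for Tubb6 in OLs was -0.73 (adjusted p = 0.00329). In OPCs Tubb6 differed by -0.25 (SE 0.081, adjusted p = 0.162). The difference between the OL and OPC responses was 1.01 (SE 0.197, adjusted p = 0.0187), the 1 call among the 10 genes, where 1.69% of all genes were called. It was lost without OPC control library A, OPC guide 1 library A or B, or OL control library A (adjusted p between 0.0519 and 0.0678).

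Tppp and Tuba1b missed the threshold in OLs but their calls turned on the setting. Tppp had 41.6, 40.3 and 42.4 CPM under the control guide, 51, 41.6 and 53.9 CPM for guide 1 and 56.5, 57.0 and 60.3 CPM with guide 2. The difference for both guides was 0.36 (SE 0.095, adjusted p = 0.0629) and without library B it was 0.40 (adjusted p = 0.000908). With guide 2 alone it was 0.48 (SE 0.11, adjusted p = 0.0423, where 4.44% of all genes were called), a call lost in 10 of 15 alternatives (adjusted p between 0.0618 and 0.189), among them leaving out any control library, guide 1 library A or any guide 2 library. Tuba1b had 411, 419 and 402 CPM under the control guide, 277, 428 and 281 CPM for guide 1 and 287, 268 and 286 CPM with guide 2. The log2 difference was -0.44 (SE 0.13, adjusted p = 0.087) and without library B it was -0.56 (adjusted p = 9.35e-06). In the authors' deposited table Tuba1b had 0.43 for control over targeted (adjusted p = 0.0282), and Tppp had -0.36 (adjusted p = 0.150). Library B held Tuba1a at 7263 CPM but 3956 TPM, against 5042 and 5191 CPM and 3658 and 3729 TPM in the other guide 1 libraries.

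The remaining 5 genes gave no call in OLs. Tuba1a differed by 0.07 (SE 0.11), Tubb2b by 0.05 (SE 0.085), Tubb4b by -0.01 (SE 0.1) and Tubb5 by -0.02 (SE 0.084). Tuba4a differed by -0.17, with an SE of 0.37 at about 10 CPM. Between the guides edgeR as described in the methods called 0 genes in either stage; without the filter it called 31 in OPCs, and without OPC control library A 26, and DESeq2 called 112 in OPCs and 29 in OLs. Of the 10 genes here, 6 had an unadjusted p under 0.05 between guides in OPCs (Tuba1a, Tuba1b, Tubb2a, Tubb4b, Tubb5 and Tubb6), against 8.28% of all genes, and 0 did in OLs, against 5.75%.

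**Figure D4:**
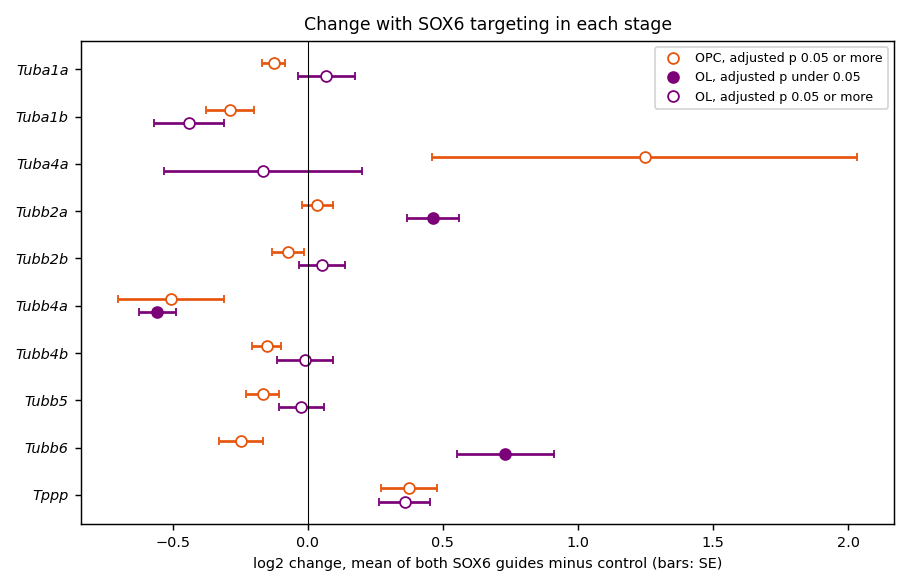
Log2 difference of both SOX6 guides from control (horizontal axis, SE bars) for each gene in OPCs and OLs; filled points passed an adjusted p of 0.05. The filled points are Tubb4a (-0.56), Tubb2a (0.46) and Tubb6 (0.73), all in OLs.

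The shares of 6 of 9 tubulin genes did not overlap between targeted and control OLs. By level in CPM 17.5% of all genes did not overlap, and shares have no such background. Shares within a pool are tied to each other, so these genes are not separate results. Tuba1a and Tuba1b made up nearly all of the alpha pool, so the fall of Tuba1b (8.37% to 6.03%) mirrors the rise of Tuba1a. Tubb4a held 4.54% ± 0.113 of the beta pool in control OLs (SD, n = 3) and 2.91% ± 0.46 in targeted OLs (SD, n = 6), Tubb2a held 18.7% ± 0.241 and 24.0% ± 1.02, and Tuba1a held 91.5% ± 0.313 and 93.7% ± 0.174 of the alpha pool. Each gave p = 0.0238 by a two-sided exact permutation test, the smallest this design allows, and 0.107 after adjustment over the 27 shares. None of the 27 passed the threshold after adjustment, but none could have, whatever the data. The smallest p the permutation test allowed was 0.0238 in OLs, 0.0357 in OPCs and 0.1 in sorted cells. Adjusted over the 27 shares, these cannot pass, so the lack of a call does not show that shares were unchanged.

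Other cell markers moved beside these genes. In targeted OLs 11 of 14 cell division genes fell, and their sum was 715 CPM under the control guide, against 455 CPM for guide 1 and 394 CPM for guide 2. The summed oligodendrocyte markers were 2153 CPM in controls against 2593 and 2933 CPM, and 5 of 7 tested markers rose. The markers of newly formed oligodendrocytes went from 2607 CPM to 817 and 1066 CPM, with 3 of 6 called lower. Of all genes, 6.5% were called in OLs with both guides. Neuron markers summed to 352, 294 and 314 CPM, astrocyte markers to 6362, 7555 and 7627 CPM, progenitor markers to 6354, 6487 and 7461 CPM, and microglia markers to at most 1.02 CPM in any library. Against the rising sum, the progenitor marker Lhfpl3 was called lower by edgeR with guide 1 (-0.74, adjusted p = 0.00104) and guide 2 (-0.62, adjusted p = 0.00266). Cspg4 (-0.92) and Gpr37l1 (-1.26) were called lower with guide 1 only. The other listed progenitor markers were not called with either guide. The part of any of these lists in the tubulin values was not tested.

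Other microtubule genes were followed in 9 lists of 94 genes. Of 24 microtubule-associated and plus-end proteins tested in control cultures, 13 rose and 2 fell with differentiation, with a median log2 difference of 0.62 against 0.02 for all genes. Mapt, which encodes tau, rose by 3.0 (SE 0.09) and Map1b, a microtubule-associated protein of growing processes, by 1.39 (SE 0.23). In sorted cells 13 of 23 rose and 3 fell, Mapt by 4.62 and Map7, a kinesin-1 cofactor, by 5.01. Of the tubulin modification genes Sirt2, a deacetylase of tubulin abundant in myelin, rose by 2.76 in cultures and by 6.07 in sorted cells. This list did not move as one in sorted cells. Atat1 (2.40) and Ttll5 (2.27) also rose, while Vash1 (-1.96), Vash2 (-1.49), Ttll4 (-1.48), Hdac6 (-0.57) and Ttll12 (-0.55) were called lower. Of 8 genes of the gamma tubulin complex, which nucleates microtubules at the centrosome, 3 fell and 1 rose in cultures and 5 fell in sorted cells. Of all genes, 43% were called between control stages (21.4% higher and 21.6% lower). In sorted cells 61% were called (26.6% higher and 34.5% lower).

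In targeted OLs 3 of the 24 microtubule-associated genes fell and 1 rose, with a median of -0.07 against 0.00 for all genes, of which 6.5% were called. Without library B 5 fell and 3 rose, with a median of 0.01, where 16.9% of all genes were called. Mapt averaged 159.6 CPM under the control guide, against 72.9 CPM for guide 1 and 91.3 CPM for guide 2, a log2 difference of -0.97 (SE 0.06, adjusted p = 2.9e-05). Camsap2, which binds microtubule minus ends, fell by 0.62 (adjusted p = 0.0022), and Map1b fell by 0.98 (adjusted p = 0.04). Map1b was called with guide 1 (-1.28, adjusted p = 0.0355) and not with guide 2 (-0.67, adjusted p = 0.277). Dclk1, a doublecortin-like kinase, rose by 0.60 (adjusted p = 0.00096). Sirt2 fell by 0.40 (adjusted p = 0.0036). Without library B the log2 differences were -0.98 for Mapt, -0.61 for Camsap2, -0.83 for Map1b, 0.61 for Dclk1 and -0.42 for Sirt2, and all 5 remained past the threshold (largest adjusted p = 0.000282). In targeted OPCs Mapt fell by 0.89 and Tubb3, the neuronal beta tubulin, by 0.74 (adjusted p = 0.0052 each). Of 11 neuron markers tested there 5 were lower and 1 higher, where 3.59% of all genes were called. Their sum was 280 CPM under the control guide, against 195 and 218 CPM for guides 1 and 2. The part of these markers was not tested. In the same OPCs Dclk1 and Clip2, a plus-end linker, rose by 0.29 and 0.20.

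Across the 17 libraries of the SOX6 experiment, log2(CPM + 1) of Tubb4a was most like that of Scamp5 (Pearson r = 0.995), Fa2h (0.995), Prkcq (0.995), Mfge8 (0.995) and Abhd3 (0.994), among 8767 genes. Genes most like Tppp included Nwd1 (0.967), Tenm4 (0.964), Fech (0.964) and Jak1 (0.961). Within the 10 genes the closest pairs were Tubb4b with Tubb5 (r = 0.992), Tuba1b with Tubb5 (0.990) and Tuba1a with Tubb2b (0.990). The libraries split by stage and table, so these values describe that split as well as the genes.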

How the data were processed

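The submitters' processing notes name Salmon 0.14.1, DESeq2 (no version) and mm10. For the SOX6 experiment the authors deposited estimated counts and TPM per gene symbol, and TPM alone for the sorted cells. They also deposited log2 fold changes (control over targeted) and adjusted p-values. The kit named in the labels does not mark strand. Another 136 per-library columns, in 14 files, were not used. Columns were matched to groups by name.

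Estimated counts were rounded, filtered (filterByExpr, minimum count 10, minimum total 15), scaled by TMM and tested with edgeR 4.0.16 in R 4.3.3 (quasi-likelihood, two-sided), each stage alone, and both stages together for stage differences and interaction. Sorted-cell genes at 1 TPM or more in at least 3 libraries were tested as log2(TPM + 1) with limma 3.58.1; this scale understates changes of low genes. Benjamini-Hochberg adjustment ran over all genes, with a threshold of 0.05. Isotype shares had exact permutation tests. DESeq2 1.42.0, other scalings, filters and left-out libraries were alternatives; tests were tried on simulated data. Named genes were the 10 members, Sox6, listed genes past the threshold (at most 5 per list and direction) and the 5 genes most like Tubb4a and Tppp with at least 10 CPM in a group; 1 of these is not reported here. The members and lists were chosen with earlier results of these data known.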

Additional observations from a re-analysis of the deposited data

Results flagged for a closer look

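Tubb6 responded differently to SOX6 targeting in the 2 stages by a test of the difference itself (edgeR quasi-likelihood interaction). The log2 difference was 0.73 in OLs and -0.25 in OPCs, a difference of 1.01 (SE 0.197, adjusted p = 0.0187). In OPCs guide 1 libraries had 51.2 and 51.6 CPM and guide 2 libraries had 85.2, 84.3 and 68.2 CPM, against 84.2, 74.1 and 72.3 CPM in the controls.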

How the results depend on the processing

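Tubb4a in OLs with both guides and all calls of the 10 genes in sorted cells and between control stages kept direction and threshold under every other setting and left-out library listed in the methods. Summing Tubb2a and Tubb2b, chosen after seeing the data, gave a higher value between control stages (0.29) and no call in sorted cells (0.10). Tubb2a alone was lower in both and Tubb2b rose in both (0.50 and 0.39). These sums therefore cannot tell a fall of Tubb2a from the way reads were divided. Summing Tuba1a, Tuba1b and Tuba1c gave no call between control stages (0.25), where Tuba1a alone was called and Tuba1b fell. How reads were divided between the copies was not tested. No paired analysis was possible because the columns of the tables carry letters, not the labels' replicate numbers, so the replicate block was not run; a block on the letters was not tried, since nothing says that a letter pairs libraries.

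Counts of called genes moved as follows, the cause not being tested. In OPCs, both guides gave 816 under DESeq2, 237 when transcript length was an offset, and 254 from 1 fit over both stages (149 to 550 with 1 library left out); guide 1 gave 801, 167 and 189 (7 to 614), guide 2 gave 518, 110 and 166 (78 to 254), and guide 2 against guide 1 gave 112 with DESeq2 and 31 without a filter (0 to 26). In OLs, both guides gave 1500, 579 and 1604 (353 to 2337), guide 1 gave 1281, 431 and 1367 (256 to 1580), guide 2 gave 1137, 328 and 1171 (212 to 2147), and guide 2 against guide 1 gave 29 with DESeq2 (0 to 1). The interaction gave 525 with DESeq2 and 104 with the offset (113 to 638).

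Depth limits Tuba4a, at 1.56 CPM or less in every OPC library, and the sorted table gives no depth.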
